A study of Mus musculus with 4 samples.

Results

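The genes described here encode subunits of the transcription factor AP-1 (Fosl1, Fosb, Jun and Junb), a transcription factor of the ETS family (Etv4) and phosphatases that switch off MAP kinases (Dusp1 and Dusp4). They were chosen by symbol as transcriptional readouts of sustained ERK signalling, with earlier results of these data known. They are 7 genes of the 9081 named genes with a value in the rows used. All 7 had a value on every array, as did 6327 genes in all. On 4 two-colour arrays, NIH3T3 cells transfected with Erbb2, and labelled as overexpressing it, were set against untransfected NIH3T3 cells, labelled as having normal Erbb2 expression. NIH3T3 is an established line of mouse embryonic fibroblasts, and the product of Erbb2 is a relative of the epidermal growth factor receptor. The transfected sample was in Cy5 on arrays 1 and 2 and in Cy3 on arrays 3 and 4. The arrays are technical replicates of 1 sample per line, so SDs and p-values measure the spread between arrays and none covers the spread between cultures. The Erbb2 allele, the promoter that drove it, whether the line was 1 clone, and the culture conditions are not stated in the labels.

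Each value is a log2 ratio of both channels, in which 1 unit is a 2-fold difference. The deposited table leaves the direction of these ratios unstated. A positive value is read below as a higher level in transfected cells, the likely direction; all signs would turn together if that reading were wrong. The named probes included none for Erbb2, so the transfected gene could not serve as a check of the labels.

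ERBB receptors activate RAS and through it the kinases RAF, MEK and ERK. ERK phosphorylates factors that switch on immediate early genes, among them genes of the FOS and JUN families. FOS and JUN proteins pair through leucine zippers to form AP-1, and the make-up of the pair changes with the strength and length of the signal. The product of Fosl1, FRA-1, is stabilised by ERK phosphorylation and accumulates when the pathway stays active. ERK also induces its own inhibitors, such as the dual-specificity phosphatases, so that their transcripts serve as a readout of pathway output.

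Upstream sequence of 4 of the 7 genes (Jun, Fosb, Junb and Dusp1) was found in the RefSeq promoter table of GRCm38.p6. Of the others, Fosl1, Dusp4 and Etv4 had no entry there. The 250 bases before each start were searched on both strands for TGACTCA (the classical AP-1 site), TGACATCA (a variant AP-1 site), TGACGTCA (the cyclic AMP response element, CRE), CCGGAAGT (an ETS site) and the CArG box of serum response factor. The search gave 1 match in Jun and 1 in Dusp1, and none of these letters in the windows of Fosb and Junb. Both stretches with a match are shown, and a link between the matches and the ratios on the arrays was not tested. The capitals mark the match.
Jun, chr4:95052223-95052307, minus strand, TGACATCA: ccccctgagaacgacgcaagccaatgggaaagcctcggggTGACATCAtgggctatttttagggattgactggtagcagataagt
Dusp1, chr17:26508568-26508655, minus strand, TGACGTCA: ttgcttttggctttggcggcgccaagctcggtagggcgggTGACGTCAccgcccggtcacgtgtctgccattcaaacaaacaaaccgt
The match in Jun begins 45 bases before the start, and the match in Dusp1 begins 143 bases before it. As background, the variant site in Jun is a known binding site of AP-1 itself. Of 32851 promoters in the table, 2.93% held TGACATCA and 1.55% held TGACGTCA in a window of this length. The other motifs were held by 4.46% (TGACTCA), 2.88% (CCGGAAGT) and 1.47% (CArG box).

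The 7 genes did not share one direction. Fosl1, Jun and Etv4 were above 0 on all 4 arrays, Fosb, Junb and Dusp1 were below 0 on all 4, and Dusp4 had mixed signs. Of all 6327 genes, 9.58% were above 0 on every array and 13% were below 0 on every array, 22.6% together. With each array centred on its median, 4 of the 7 kept one sign, against 22.1% of all genes, because Etv4 then stood at -0.004 on array 2 and Junb at 0.079 on array 4. The signs of all 7 means were the same after centring and after scaling to a common spread. The mean of Fosl1 lay above 1 and that of Fosb below -1, where 3.87% and 7.7% of all genes lay (11.6% together). After scaling to a common spread Fosb had -0.99 and Etv4 1.02, so Fosb then fell short of -1 and Etv4 passed 1. The median of the 7 means was -0.39, against -0.08 over all genes. It has no settled sign: it was 0.85 over the 5 genes of the first 6000 rows, -0.04 with the rows as deposited, and 0.23, 0.22 and 0.44 under the 3 other offsets.

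No gene of the 7 passed the test over all genes. Limma, fitted with a dye term, gave Benjamini-Hochberg adjusted p-values between 0.31 and 0.614 for them. Limma called 0 of the 6327 genes (0% of those tested), and the smallest adjusted p was 0.105. An unadjusted p under 0.05 was reached by 730 genes, with 4.05% of all genes higher and 7.49% lower. After each array had been centred on its median, 299 genes were higher and 414 lower at that level, against 256 and 474 before. Of the 7 genes, 3 reached it: Fosl1 and Etv4 on the higher side and Dusp1 on the lower side.

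**Figure D1:**
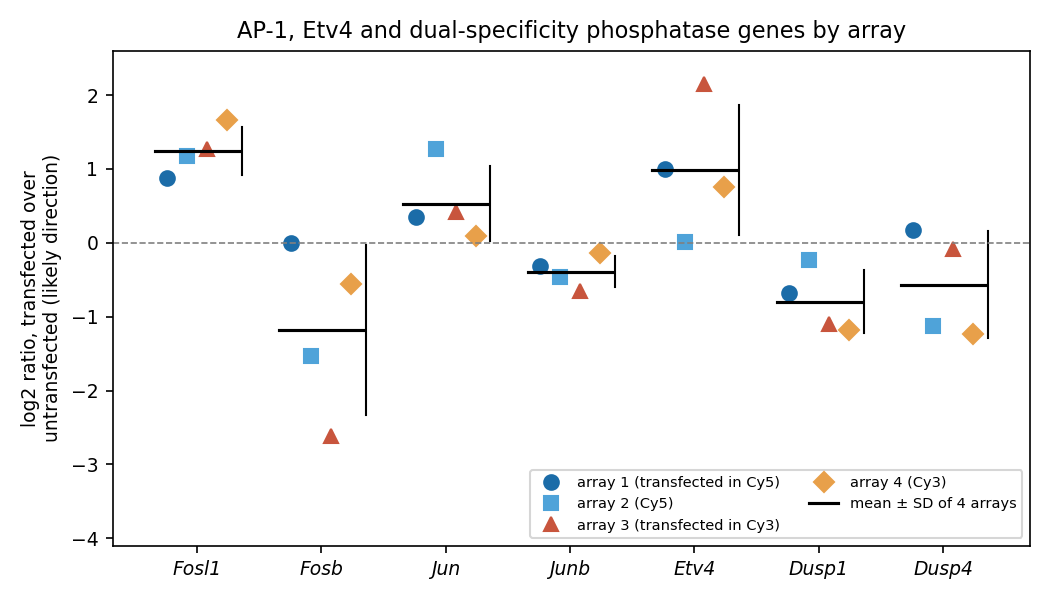
Log2 ratio (y axis) of each of the 7 genes (x axis) on the 4 arrays; symbols give the array, blue for the transfected sample in Cy5 and red or orange for Cy3, with horizontal bars for the mean and vertical bars for the SD of the 4 arrays. Fosl1 lies between 0.88 and 1.66, while the values of Fosb spread from -0.005 to -2.62.

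Among the FOS family genes, Fosl1 and Fosb lay on opposite sides of 0. Fosl1 had log2 ratios of 0.88, 1.18, 1.27 and 1.66 on arrays 1 to 4. All values were thus well above 0. Both arrays with the transfected sample in Cy3 (mean 1.46) were higher than both arrays with it in Cy5 (mean 1.03). The mean was 1.25 ± 0.32 (SD, 4 arrays), a 2.37-fold higher level in the transfected line. Limma gave a standard error of 0.28, an unadjusted p of 0.00631 and an adjusted p of 0.31. Only 2.18% of all genes had a higher mean, and 11.5% had a smaller SD between arrays.

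Fosb encodes a FOS protein that is induced within minutes of growth factor stimulation and is usually transient. It had -0.005, -1.54, -2.62 and -0.55 on arrays 1 to 4. No array gave a positive value, but array 1 was at 0 and array 3 was far below the others. The mean was -1.18 ± 1.15 (SD, 4 arrays), and the SD was about as large as the mean (limma, adjusted p = 0.443). Without array 3 the mean was -0.70. Fosb has 1 probe, which lies in the part of the table where arrays 2 to 4 had to be read 3 rows higher than array 1. Read without that offset, the same probe had 0.74, -0.91 and -0.34 on arrays 2 to 4, and its mean was -0.13. With an offset 1 row smaller its mean was -0.50, and with one 1 row larger it was 0.22. The size of the mean thus held under none of these readings and its sign not under the last.

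Among the JUN family genes, Jun and Junb lay on opposite sides of 0 as well. Jun encodes the strongest transcriptional activator of the family, and its means per array were 0.35, 1.27, 0.42 and 0.10. All were above 0, with array 2 highest and array 4 lowest. The mean was 0.53 ± 0.51 (SD, 4 arrays; limma, adjusted p = 0.546), and 0.29 without array 2. Jun was the only gene of the 7 with more than 1 probe. Its first probe had 0.21, 1.13, 0.67 and 2.12 on arrays 1 to 4, and its second had 0.48, 1.41, 0.17 and 0.61. Both were positive on every array, with means of 1.03 and 0.67.

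The third Jun probe went the other way. It had a value on array 4 alone, -2.44 after an offset of 4 rows. That value, unlike the others of the 7 genes, equals a ratio of whole numbers of at most 10 plus the commonest value of the array, to within 0.001 on the log2 scale. Of all values on array 4, 8.75% did so. Since the deposited table holds no intensities, how bright the spot was is not known. This single value took the mean of Jun on array 4 from 1.37 to 0.10. With the first and second probes only, a choice made after the values were seen, Jun had 0.35, 1.27, 0.42 and 1.37 and a mean of 0.85 ± 0.54 (SD, 4 arrays; limma, adjusted p = 0.434).

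Junb encodes a JUN protein that activates transcription less strongly and can oppose Jun. It had -0.32, -0.46, -0.65 and -0.14 on arrays 1 to 4. The values were small and close together, and only 4.03% of all genes had a smaller SD. The mean was -0.39 ± 0.21 (SD, 4 arrays), a 1.31-fold lower level (limma, adjusted p = 0.614). Of all genes 28.7% had a lower mean, so Junb lay within the bulk of the distribution.

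Differences between genes of the same array do not depend on the constant that the authors' processing left on each array. Fosl1 exceeded Junb by 1.19, 1.64, 1.91 and 1.80 log2 units on arrays 1 to 4, a mean difference of 1.64 ± 0.32 (SD, 4 arrays). It exceeded Dusp1 by 1.55, 1.42, 2.36 and 2.83 units. Jun exceeded Junb by 0.66, 1.73, 1.06 and 0.24 units, and Dusp1 by 1.02, 1.51, 1.51 and 1.27 units. Each of these pairs set a gene above 0 on every array against a gene below 0 on every array, so the signs alone fixed which was higher. Only the sizes of the differences add to the signs. Fosl1 and Etv4 kept no order: Etv4 was higher on arrays 1 and 3 and Fosl1 on arrays 2 and 4. Of the 21 pairs among the 7 genes, 12 kept one order on all 4 arrays. For 9 of these the signs of the genes before centring alone fixed that outcome. Fewer pairs were fixed in this way after centring, when Junb and Etv4 no longer kept one sign. The share of all gene pairs that kept one order was not computed, so the count of 12 is a description only.

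Etv4 encodes PEA3, an ETS factor named for its binding to a viral enhancer and known in ERBB2-positive breast tumours. It had 1.004, 0.017, 2.15 and 0.76 on arrays 1 to 4. All values were above 0, but array 2 was at 0 and array 3 stood well above the others. The mean was 0.98 ± 0.88 (SD, 4 arrays), a 1.97-fold higher level, with 4.01% of all genes higher. Limma gave an unadjusted p of 0.0467 and an adjusted p of 0.43. The mean was 0.51 with the transfected sample in Cy5 and 1.45 with it in Cy3. Without array 3 it was 0.59 and without array 2 it was 1.30, so array 3 moved it by more than 1.5 times.

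**Figure D2:**
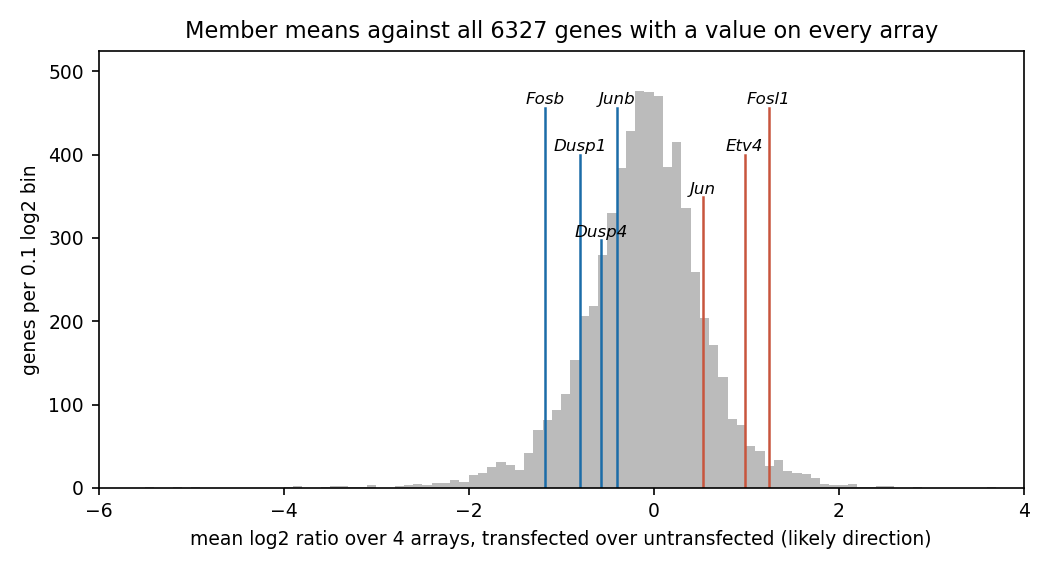
Number of genes (y axis, per bin of 0.1 log2 units) by mean log2 ratio over the 4 arrays (x axis), for all 6327 genes with a value on every array; vertical lines mark the 7 genes, red above 0 and blue below, and their heights carry no value. Fosl1 and Etv4 lie in the upper tail, with 2.18% and 4.01% of genes above them, and Fosb in the lower tail, with 5.23% below it.

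The phosphatase genes had means below 0. Dusp1 encodes MKP-1, an inducible nuclear phosphatase that acts on p38, JNK and ERK. It had -0.68, -0.24, -1.09 and -1.17 on arrays 1 to 4. All values were below 0, and both arrays with the transfected sample in Cy3 (mean -1.13) were lower than both arrays with it in Cy5 (mean -0.46). The mean was -0.80 ± 0.43 (SD, 4 arrays), a 1.74-fold lower level, with an unadjusted p of 0.0348 and an adjusted p of 0.416 (limma). Of all genes 12% had a lower mean.

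Dusp4 encodes MKP-2, a nuclear phosphatase induced by ERK signalling. It had 0.18, -1.13, -0.08 and -1.24 on arrays 1 to 4. Arrays 1 and 3 were near 0 and arrays 2 and 4 were below -1, so that each dye orientation held a value near 0 and a low one. The mean was -0.57 ± 0.72 (SD, 4 arrays; limma, adjusted p = 0.589), and -0.34 without array 4. Its 1 probe also lies in the rows read with an offset of 3. Read without the offset, it had -0.16, -0.33 and 0.16 on arrays 2 to 4, and the mean was -0.04. With the offset turned the other way the mean was 0.44.

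By mean log2 ratio the order from highest to lowest was Fosl1, Etv4, Jun, Junb, Dusp4, Dusp1 and Fosb. Of the neighbours in that order, Jun and Junb were the only pair in which the higher gene was above the lower gene on every array. Jun was above 0 and Junb below 0 on every array, so their signs alone fixed that outcome. Fosl1 and Etv4, Etv4 and Jun, Junb and Dusp4, Dusp4 and Dusp1, and Dusp1 and Fosb each changed places on at least 1 array.

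For each gene, the named gene with the most similar set of 4 log2 ratios was found by the root mean square difference over the 4 arrays. The nearest to Fosl1 was Fyb2 (0.93, 1.30, 1.37 and 1.46, a root mean square difference of 0.128). For Jun it was Aig1 (0.0833), for Junb Mrpl37 (0.0776) and for Etv4 Fam98c (0.163). For Dusp1 it was Sumo3 (0.129), for Dusp4 Acy3 (0.167) and for Fosb Enox1 (0.102). Each was the closest of 6326 other genes over only 4 technical arrays, so the match is a description of these ratios.

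Other genes of the pathway were taken from lists of textbook members. Of 14 other AP-1 and bZIP genes, 7 had any value and 3 a value on all 4 arrays, and limma called 0 of them. Their median mean was 0.76. Mafk, a small MAF protein, was above 0 on every array (0.68, 0.87, 1.82 and 0.78; mean 1.03 ± 0.53, SD). Its relative Mafg had 0.76 ± 0.65 and Atf2, which pairs with Jun, -0.28 ± 0.34.

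Of 20 other inhibitors of the pathway, listed under MAPK feedback, 5 were measured on all arrays, and limma called 0. The median of these 5 genes was -0.21, the mean of Dusp3. Whether ERK induces Rasa1, Nf1 or Dusp3 was not tested, so their ratios are not read as feedback. Rasa1, a GTPase-activating protein that returns RAS to its inactive form, was above 0 on every array (0.92, 1.29, 0.91 and 0.81; mean 0.98 ± 0.21, SD; limma, adjusted p = 0.381). Dusp14 had -0.47 ± 0.49, below 0 on every array before centring but at 0.031 on array 4 after it. Dusp8 had 0.10 ± 0.40 and Nf1, another GTPase-activating protein for RAS, -0.37 ± 0.98.

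Of 18 other ETS and immediate early genes 5 were measured on all arrays, 0 were called, and the median was 0.27. Ier3 was above 0 on every array (0.16, 0.59, 1.31 and 1.12; mean 0.80 ± 0.52, SD). Myc, an immediate early oncogene, had values from -1.74 on array 3 to 2.40 on array 2 and a mean of 0.67 ± 1.88. Srf, which encodes serum response factor, had -0.54 ± 0.64, and Elk1, its ETS partner, 0.15 ± 0.71.

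Of 29 genes of the RAS-RAF-MEK-ERK, JNK and p38 cascades 8 were measured on all arrays, 0 were called and 6 had mixed signs. Their median was 0.09, against -0.08 over all genes. The MEK genes Map2k1 and Map2k2 had 0.45 ± 0.47 and 0.39 ± 0.65. At the other end, the adaptor gene Grb2 had -0.35 ± 0.38 and the JNK gene Mapk9 -0.76 ± 1.98, with -3.53 on array 3 alone.

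Of 25 textbook targets of AP-1 and ERK 5 were measured on all arrays, 0 were called and the median was 0.09. Cd44, a hyaluronan receptor, was above 0 on every array (0.49, 1.32, 1.52 and 2.15; mean 1.37 ± 0.69, SD; limma, adjusted p = 0.315). Its mean was close to that of Fosl1. Hbegf, an ERBB ligand, had 0.53 ± 1.34. The metalloproteinase gene Mmp2 had -1.01 ± 0.61, below 0 on every array before centring but at 0.035 on array 4 after it. Timp1 had 0.06 ± 0.24. The lists therefore held genes on both sides of 0, as did the 7 genes themselves, and the sign of each list median was the same after centring and after scaling.

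**Figure D3:**
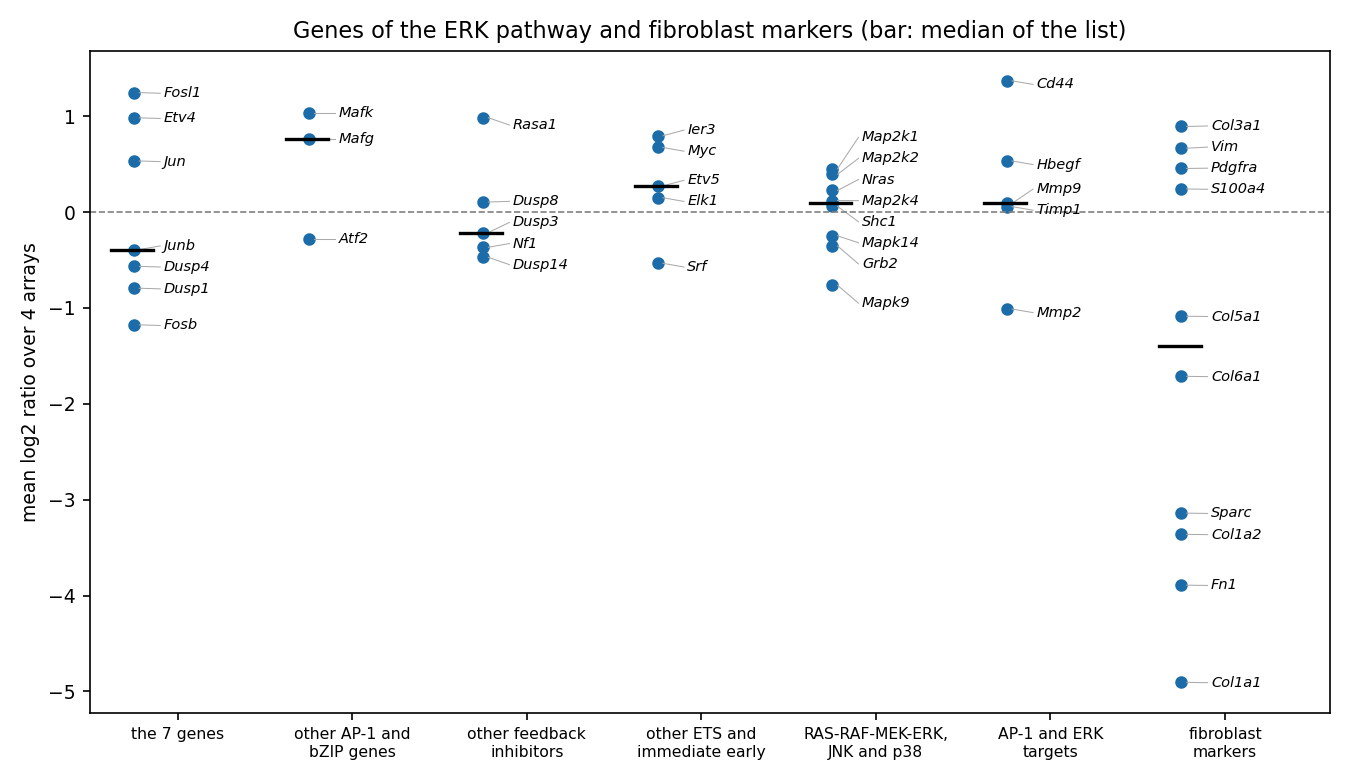
Mean log2 ratio over the 4 arrays (y axis) of each gene measured on every array, by list (x axis); each point is a gene and the black bars are the list medians. The pathway lists have medians between -0.39 and 0.76, and the fibroblast markers range from -4.91 (Col1a1) to 0.89 (Col3a1).

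Ratios between lines give no level of a gene, so the labelled cell type could be described only by the ratios of its markers. Of 14 fibroblast markers 10 were measured on all arrays, with a median of -1.40. Of these, 5 were below 0 on every array and 1 was above 0 on every array, and the mean log2 ratio over the list lay between -1.84 and -1.45 on each array. Col1a1 (-4.91 ± 1.46) and Fn1 (-3.89 ± 0.36) were lowest, and Col3a1 (0.89 ± 1.36) and Vim (0.67 ± 0.18) highest. The list medians of 3 epithelial and 3 leukocyte markers measured on all arrays were 0.35 and -0.22, with array means from -0.24 to 0.85 and from -1.14 to 0.89. The epithelial genes were Cldn3 (0.86 ± 1.0), Krt8 (0.35 ± 0.73) and Epcam (-0.52 ± 0.33). The leukocyte genes were Cd3e (0.79 ± 2.38), Cd68 (-0.22 ± 0.39) and Lyz2 (-1.17 ± 0.70). Whether these shifts have a part in the values of the AP-1 and phosphatase genes was not tested. Fewer cells of a type and less RNA per cell cannot be told apart in such bulk RNA.

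The reading of the rows touches the ratios of Fosb, Dusp4 and the third Jun probe, since Fosl1, Junb, Etv4, Dusp1 and the other Jun probes lie in the first 6000 rows. Across those rows, which are not independent, array 1 had a mean Pearson r of 0.117 with arrays 2 to 4 when no offset was used. Between rows 8000 and 18000 it was -0.003 without an offset and 0.083 with an offset of 3. In the last rows it was -0.01 without an offset and 0.14 with an offset of 4. Across genes the ratios of any 2 arrays correlated weakly, with r between 0.123 and 0.202.

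**Figure D4:**
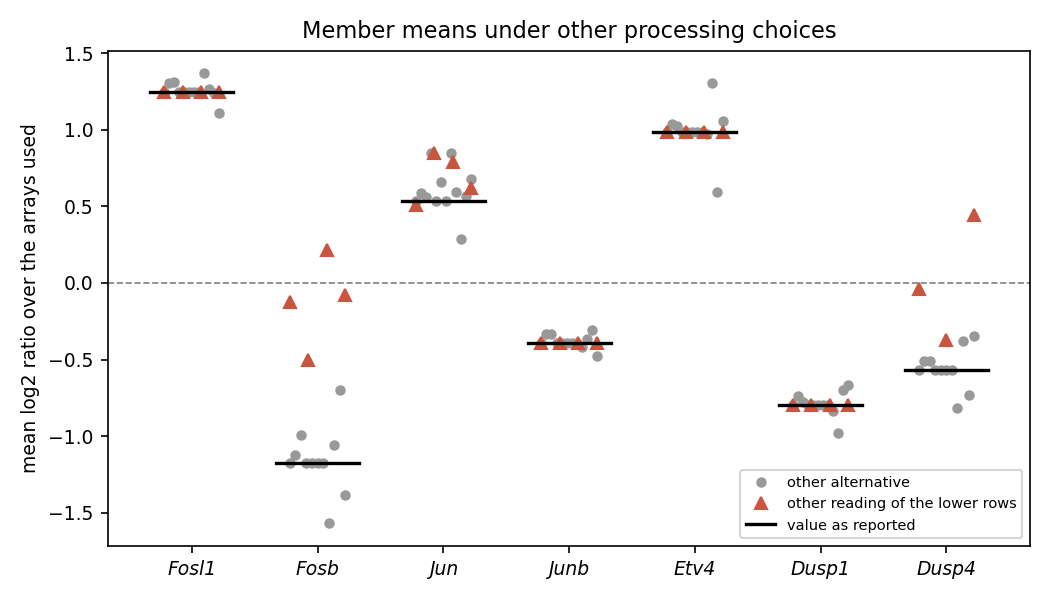
Mean log2 ratio over the arrays used (y axis) of the 7 genes (x axis): black bars give the value as reported, red triangles other readings of the lower rows and grey points the other alternatives. Fosl1 lies between 1.11 and 1.37, Fosb between -1.57 and 0.22 and Dusp4 between -0.82 and 0.44. The other readings of the lower rows could not move Fosl1, Junb, Dusp1 or Etv4, whose probes lie outside those rows. The width of their ranges therefore cannot be compared with that of Fosb or Dusp4.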

How the data were processed

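Gene expression was measured on 4 two-colour arrays. The authors deposited log2 ratios of both channels; this scale was read from the values, and image analysis, background correction, normalization and direction are not stated in the labels. The deposited columns were not centred (medians 0.14, 0.02, -0.16 and -0.22) and had a value for 76.8% to 94.6% of 20355 probes. Depth has no meaning here; the number of arrays limits the precision.

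Values beyond 15 either way (63 to 121 per array) were left out. Rows 1 to 6000 were used as they stand; arrays 2 to 4 were read 3 rows higher in rows 8001 to 18000 and 4 rows higher from row 18301, and 2300 rows were left out. Names came from the platform annotation (14030 probes with 1 symbol, 5 with several, 6320 unnamed; 13994 matched to RefSeq, GRCm38.p6, changing 0 symbols). Probes were averaged per gene, and genes with a value on all 4 arrays were tested with limma 3.58.1 (R 4.3.3; mean and dye term; Benjamini-Hochberg over all genes, threshold 0.05), which was tested on simulated data. The genes named are the 7 members, the 2 highest and 2 lowest of each list and each member's nearest gene. The members and lists were chosen with earlier results of these data known. Alternatives covered the dye term, centring, scaling, rows, offsets, capped values, probes, missing values and each array left out.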

Additional observations from a re-analysis of the deposited data

How the results depend on the processing

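The 109 values of the 7 genes under 16 alternatives gave 0 calls by limma (smallest adjusted p = 0.208, for Fosb without array 4), and 107 kept their sign. Many of these signs could not turn, because Fosl1, Junb, Dusp1 and Etv4 have 1 probe each, in the first 6000 rows. The means of these genes could change only with centring, scaling or an array left out. Fosb turned to 0.216 with an offset 1 row larger and Dusp4 to 0.442 with the offset turned the other way. Fosl1 lay between 1.108 and 1.368, Jun between 0.286 and 0.849, Junb between -0.474 and -0.306, Dusp1 between -0.981 and -0.669 and Etv4 between 0.593 and 1.303. The count of all genes called, 0, was 6 with the dye term left out, 3 once the arrays were brought to a common spread and 3 with the median over probes. The count of members with a mean past 1 either way, 2, was 1 in the first 6000 rows, with all rows as deposited and with each of the 3 other offsets, and 3 with arrays centred, where Etv4 had 1.038; with arrays scaled it stayed 2, with Etv4 in place of Fosb (-0.991). Leaving out 1 array gave 1 to 3 (1 without array 3, where Fosb had -0.698). It also gave 6 to 7 members of one sign, but over 3 arrays rather than 4, which is easier to meet. The count of members of one sign on all 4 arrays, 6, was 4 with arrays centred, scaled or read as deposited. It was 5 of 5 in the first 6000 rows, and 5 with an offset 1 row larger or turned the other way. The median of the member means, -0.392, was 0.849 in the first 6000 rows, where 5 members remain, -0.039 as deposited, 0.229 with an offset 1 row smaller, where 6 remain, 0.216 with it 1 row larger and 0.442 with it turned; the causes were otherwise not tested. Each ratio already pairs both lines on 1 array, and limma was fitted to these ratios. No further pairing was possible because there is 1 group of arrays. Signal over background is unknown. With 1 sample per line, Erbb2 and any other difference of the lines cannot be told apart.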
